A study of Homo sapiens with 21 samples.

Results

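Vorinostat (SAHA), an inhibitor of class I and class II histone deacetylases, was compared with its solvent DMSO in EGFR-high PC-9 cells. PC-9 is an established EGFR-mutant non-small cell lung cancer cell line. The labels give its genotype as an EGFR deletion from E746, but with another last residue in each of the 21 samples, so the end of the deletion is not given here. The comparison holds 6 of the 21 samples of the series, 3 EGFR-high libraries treated with DMSO and 3 treated with 1 µM vorinostat, and it was taken by these labels and not by any measured value. The EGFR-high cells had been selected with an EGFR antibody in 6 rounds of sorting, each keeping the 5 to 10% of cells that stained most. They are therefore a sorted population of 1 line and not a clone. EGFR-low cells, sorted from the same line for the least EGFR, were treated in the same way, and their 6 libraries are used here only for contrast. Treatment began 24 h after seeding and lasted 72 h. By the study's definition, biological replicates are experiments done at separate times.

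Histone deacetylases remove acetyl groups from histone tails and from other proteins, and their removal generally goes with closed chromatin and low transcription. Inhibitors of these enzymes raise histone acetylation and are known for changing the RNA of many genes in both directions. Effects described for them in cancer cells include induction of the cell cycle inhibitor CDKN1A (p21), repression of genes for DNA synthesis and mitosis, and shifts in apoptosis regulators. Induction of metallothioneins has been described as well. The study asked whether such an inhibitor changes EGFR itself.

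Expression was measured by sequencing of polyadenylated RNA, and each value is an FPKM (fragments per kilobase of transcript, scaled to the mapped fragments of the library). Read depth is unknown and no counting error can be given, and a value of 0 is called listed at 0. Of 20111 genes listed, 12236 reached 1 FPKM in 3 or more of the 12 libraries of both populations and were tested on the log2(FPKM + 1) scale. The added 1 makes the fold changes of genes near 1 FPKM smaller than the ratio of their FPKM. Epithelial markers of the labelled cell type were present, with EPCAM at 171 to 234 FPKM and KRT8, KRT18 and KRT19 at 544 to 1080 FPKM in the 6 libraries. Of 9 fibroblast markers only COL1A1 exceeded 1 FPKM (at most 4.03), of 5 endothelial markers only CDH5 did (at most 8.02), and of 9 leukocyte markers CD68 (at most 34.6) and LYZ (at most 2.76) did. DCN was listed at 0 in all 6 libraries, and PTPRC and VWF did not exceed 0.200 FPKM. In RNA from whole cultures, fewer cells of a kind and less RNA per cell cannot be told apart.

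Among the 6 EGFR-high libraries, vorinostat replicate 1 and DMSO replicate 3 stood apart from the other 4. The profiles of DMSO replicates 1 and 2 and vorinostat replicates 2 and 3 correlated with each other across the tested genes at r = 0.982 to 0.990. Vorinostat replicate 1 correlated with the other 5 libraries at 0.949 to 0.963, and DMSO replicate 3 at 0.949 to 0.971. Vorinostat replicates 2 and 3 correlated with DMSO replicates 1 and 2 at 0.982 to 0.990, and the latter with each other at 0.985. The lowest of these values was that of vorinostat replicate 3 with DMSO replicate 1. No gene above 0 had an identical value in any pair of these libraries. The treatment labels were taken as given. Whether vorinostat replicates 2 and 3 received the drug, and whether any library is a mixture, was not tested, and every comparison of vorinostat with DMSO below is between libraries so labelled. The main results are therefore also given with vorinostat replicate 1 set apart from replicates 2 and 3, and without DMSO replicate 3.

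DMSO replicate 3 carried RNA of genes that belong to EGFR-low cells. There were 35 genes under 0.5 FPKM in the 4 similar EGFR-high libraries and above 20 FPKM in EGFR-low DMSO replicates 2 and 3 and vorinostat replicates 2 and 3. Among them were the lung lineage factor SOX2, the cancer-testis antigen CT45A2, the protease inhibitor SERPINA1 and the interferon-induced DNA sensor IFI16. In DMSO replicate 3 these genes stood at a median of 25.7% of their EGFR-low level (range 17.8 to 37.6%). In vorinostat replicate 1 the median was 2.54%, and in the other 4 EGFR-high libraries it was 0.0813 to 0.164%. The genes were chosen by the values of those 4 EGFR-high libraries and of the 4 EGFR-low libraries, so the low percentages in the former follow from the choice. DMSO replicate 3 and vorinostat replicate 1 took no part in it. No test was run, and the percentages are a description. IFI16 was listed at 0.0373, 0.0714 and 29.1 FPKM in DMSO replicates 1, 2 and 3, at 4.58, 0.0914 and 0.105 FPKM in vorinostat replicates 1, 2 and 3, and at 62.2 to 91.4 FPKM in the 6 EGFR-low libraries. In the reverse direction, 42 genes of EGFR-high cells stood at a median of 21.6% of their EGFR-high level in EGFR-low DMSO replicate 1, and at 0.296 to 0.444% in the other 5 EGFR-low libraries. Among EGFR-high libraries the median of these 42 genes was 69.3% in DMSO replicate 3, 88.4% in vorinostat replicate 1 and 96.6 to 104% in the other 4. The part of both gene sets in any result below was not tested beyond leaving the library out.

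**Figure D1:**
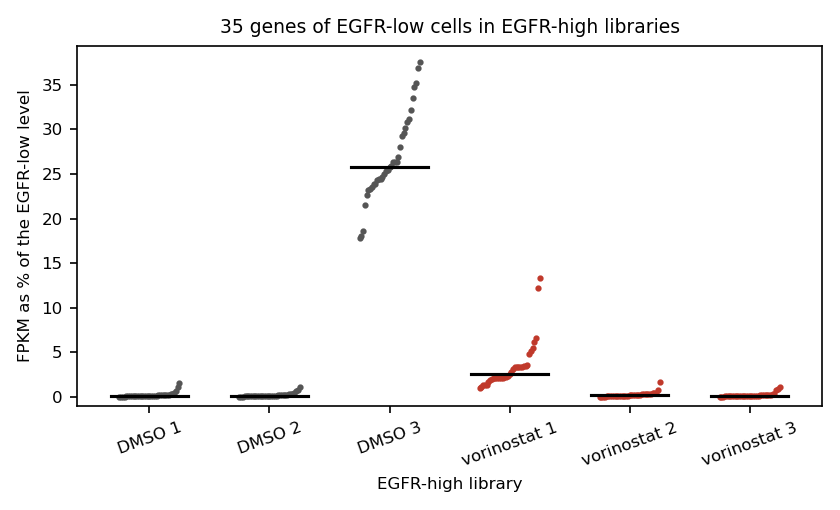
FPKM of 35 genes of EGFR-low cells in each EGFR-high library (x axis), as a percentage of their mean in 4 EGFR-low libraries (y axis). Each point is a gene, sorted by value within a library, and the bar is the median, which was 25.7% in DMSO replicate 3, 2.54% in vorinostat replicate 1 and under 0.2% in the other 4 libraries.

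Across all genes, vorinostat and DMSO did not separate in EGFR-high cells. With all 6 libraries, limma called 0 genes higher and 0 lower at an adjusted p under 0.05 (0.0% of 12236), and the lowest adjusted p was 0.940. An unadjusted p under 0.05 was reached by 409 genes (3.34%). Without vorinostat replicate 1 the counts were 0 higher and 0 lower, with 283 genes (2.31%) at an unadjusted p under 0.05. Without DMSO replicate 3 they were again 0 and 0, with 195 genes (1.59%), and without both libraries 0 and 0, with 197 genes (1.61%). The median log2 fold change over all genes was -0.06 with all libraries, 0.00 without vorinostat replicate 1 and -0.02 without DMSO replicate 3. Leaving out the other vorinostat libraries also gave 0 calls, with 1203 genes at an unadjusted p under 0.05 without replicate 2 and 648 without replicate 3. These counts do not show that vorinostat left the cells as they were, since the spread between replicates within a group was wide. In these fits the estimate of spread is shared with the EGFR-low libraries, so the spread among those is part of each test. A fit of the EGFR-high libraries alone also called 0 genes, with 138 at an unadjusted p under 0.05.

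The libraries differed among themselves far more than the groups did. In vorinostat replicate 1, 129 genes (1.05%) lay 1 log2 unit or more above the highest of the 3 DMSO libraries and 181 genes (1.48%) as far under the lowest. In vorinostat replicate 2 these counts were 1 (0.00817%) and 2 (0.0163%), and in replicate 3 they were 12 (0.0981%) and 2 (0.0163%). Against DMSO replicates 1 and 2 alone, the counts above and under were 229 (1.87%) and 218 (1.78%) for vorinostat replicate 1. They were 4 (0.0327%) and 2 (0.0163%) for replicate 2, 20 (0.163%) and 4 (0.0327%) for replicate 3, and 353 (2.88%) and 1 (0.00817%) for DMSO replicate 3. The values of vorinostat replicate 1 also sat lower as a whole, with a median over all genes of -0.14 log2 units from the DMSO median. With median-of-ratios scaling, which brought this shift to 0.00, the counts for replicate 1 were 190 above and 117 under, so the balance of the sides depends on the scaling. With GC content and length of the transcripts regressed out they were 166 and 104 of 11608 genes. Counts of list members beyond DMSO in replicate 1 are given below on the values as reported. The lower level of this library is thus part of them, and how many members would remain after scaling was not tested.

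**Figure D2:**
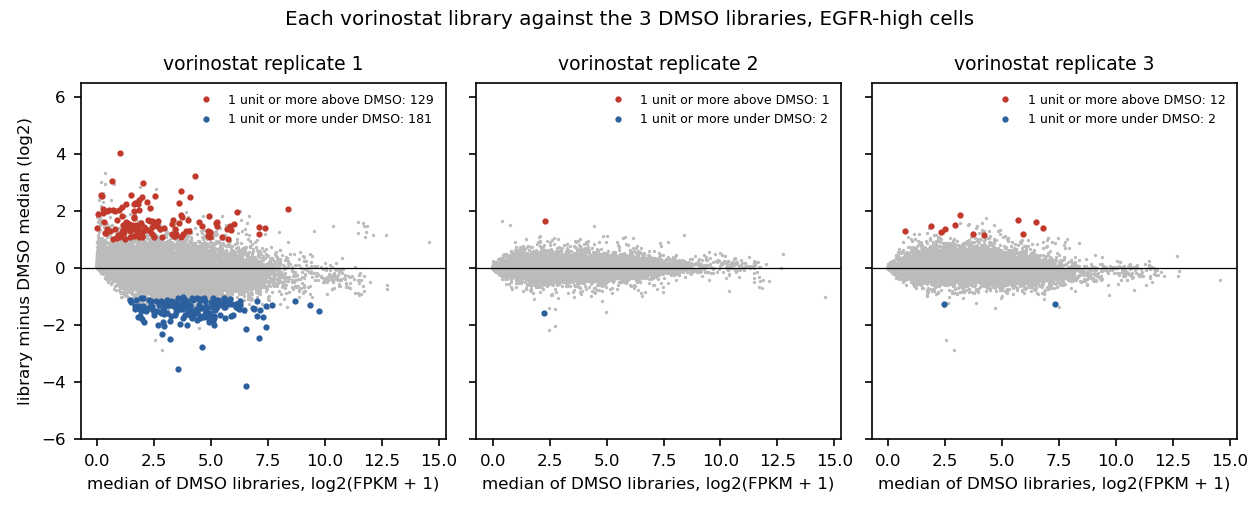
Each vorinostat library of EGFR-high cells against the 3 DMSO libraries, 1 point per tested gene, with the DMSO median on the x axis, in log2(FPKM + 1), and the library minus that median on the y axis, in log2 units. Red and blue points lie at least 1 unit beyond the highest or lowest DMSO library, 129 and 181 genes in replicate 1, 1 and 2 in replicate 2, and 12 and 2 in replicate 3, and EEF1A1, listed at 0 in replicate 2, lies off the axis.

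The study followed EGFR, smooth muscle actin (ACTA2), BIM (BCL2L11), E-cadherin (CDH1) and TGFβ2 (TGFB2) as proteins after vorinostat. Where it names the cells, they were EGFR-low cells, and for EGFR also PC-9 cells that were not sorted. For EGFR-low cells the study also reported that vorinostat abolished TGFβ gene signatures. The RNA given here is from EGFR-high cells, another population, so it cannot be set directly against those proteins or signatures. None of the RNAs of these proteins passed the test in EGFR-high cells. EGFR, the receptor for which the cells were sorted, was measured at 83.3, 152 and 109 FPKM in DMSO replicates 1 to 3 and at 196, 101 and 207 FPKM in vorinostat replicates 1 to 3. Vorinostat replicates 1 and 3 lay above every DMSO library and replicate 2 lay among them. The mean was 115 ± 34.9 FPKM in DMSO and 168 ± 58.3 FPKM in vorinostat (SD, n = 3 each), a log2 fold change of 0.52 with a 95% confidence interval of -0.25 to 1.28 (limma adjusted p = 0.940). The exact two-sided permutation p was 0.3, where 3 libraries against 3 cannot give less than 0.1. Without vorinostat replicate 1 the log2 fold change was 0.37, and without DMSO replicate 3 it was 0.50. It moved further with other libraries left out, to 0.31 without DMSO replicate 1, 0.85 without vorinostat replicate 2 and 0.33 without vorinostat replicate 3.

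BCL2L11 encodes the pro-apoptotic BH3-only protein BIM. It was measured at 4.08, 4.26 and 5.65 FPKM in DMSO and at 6.27, 4.78 and 6.28 FPKM in vorinostat. Replicates 1 and 3 of vorinostat again lay above all DMSO libraries and replicate 2 between them. The log2 fold change was 0.26 (95% confidence interval -0.09 to 0.61, limma adjusted p = 0.940). TGFB2, a secreted TGFβ ligand, was at 22.6, 13.4 and 13.7 FPKM in DMSO and at 32.2, 13.5 and 22.7 FPKM in vorinostat. Its groups overlapped, with a log2 fold change of 0.40 (95% confidence interval -0.23 to 1.03, limma adjusted p = 0.940), which was 0.12 without vorinostat replicate 1, 0.71 without vorinostat replicate 2 and 0.63 without DMSO replicate 1.

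CDH1, the adhesion molecule of epithelial junctions, was at 48.0, 60.5 and 76.4 FPKM in DMSO and at 70.9, 51.7 and 58.6 FPKM in vorinostat, and the vorinostat values fell within the DMSO range. Its log2 fold change was -0.02 (95% confidence interval -0.38 to 0.35, limma adjusted p = 0.993) and turned positive under both other scalings and without DMSO replicate 3. ACTA2 was low throughout, at 0.425, 1.04 and 2.46 FPKM in DMSO and at 0.810, 0.840 and 0.527 FPKM in vorinostat. Its log2 fold change of -0.33 (95% confidence interval -0.93 to 0.28, limma adjusted p = 0.940) rested on DMSO replicate 3, without which it was 0.01.

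Genes that HDAC inhibitors often induce were not called. Of 24 such genes 22 were tested, 0 passed in either direction, and their median log2 fold change was 0.05 against -0.06 over all genes. CDKN1A, the cyclin-dependent kinase inhibitor p21, was measured at 3.62, 3.17 and 8.93 FPKM in DMSO and at 21.7, 1.79 and 3.25 FPKM in vorinostat. It was high in vorinostat replicate 1 alone, while replicate 2 was the lowest of the 6 libraries. The log2 fold change was 0.16 (95% confidence interval -1.18 to 1.51, limma adjusted p = 0.975) and changed sign to -0.74 without vorinostat replicate 1. H1F0, the linker histone of differentiated cells, was at 219, 231 and 291 FPKM in DMSO and at 217, 213 and 472 FPKM in vorinostat, high in replicate 3 alone. Its log2 fold change was 0.19 (95% confidence interval -0.40 to 0.78, limma adjusted p = 0.941). TXNIP, an inhibitor of thioredoxin that restrains glucose uptake, was likewise high in replicate 3 alone, at 80.7, 76.3 and 275 FPKM in vorinostat against 64.0, 89.1 and 109 FPKM in DMSO. In all, 3 of the 22 genes (CDKN1A, MT1X and the carboxypeptidase CPA4) lay 1 log2 unit or more above every DMSO library in vorinostat replicate 1, where 1.05% of all genes did. In replicate 2 there were 0 of the 22, and in replicate 3 there was 1 (TXNIP), where 0.0981% of all genes did.

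Genes that HDAC inhibitors often repress gave the same picture. All 16 were tested, 0 passed, and their median log2 fold change was -0.16 with all libraries and 0.13 without vorinostat replicate 1. MYC, the growth-promoting transcription factor, was at 72.8, 76.2 and 88.0 FPKM in DMSO and at 94.8, 56.8 and 108 FPKM in vorinostat, a log2 fold change of 0.09 (95% confidence interval -0.38 to 0.55, limma adjusted p = 0.963). CCND1, cyclin D1, was at 124, 114 and 105 FPKM in DMSO and at 111, 116 and 138 FPKM in vorinostat, also a log2 fold change of 0.09 (95% confidence interval -0.26 to 0.43, limma adjusted p = 0.950). TYMS, thymidylate synthase, was at 33.7, 26.8 and 36.9 FPKM in DMSO and at 9.89, 41.3 and 29.01 FPKM in vorinostat, low in replicate 1 alone. In that replicate 3 of the 16 genes (TYMS, CCNA2 and BRCA1) lay 1 log2 unit or more under every DMSO library, where 1.48% of all genes did, and in replicates 2 and 3 there were 0.

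The targets of the drug were expressed at like levels in both groups. The 11 genes of the class I, II and IV histone deacetylases all passed the filter, 0 were called, and their log2 fold changes ran from -0.21 (HDAC6) to 0.15 (HDAC5). HDAC1 was at 91.1 to 99.6 FPKM in DMSO and 80.7 to 104 FPKM in vorinostat, HDAC2 at 100.2 to 114 and 96.4 to 116 FPKM, and HDAC3 at 26.6 to 27.9 and 24.6 to 28.3 FPKM. In each of the 3 the vorinostat values spanned those of DMSO. Of 22 partner proteins of these enzymes, 2 lay higher in all vorinostat libraries than in any DMSO library, as did 2.25% of all genes, and CHD4 was one of them. CHD4, the ATPase of the NuRD complex, was at 65.9, 72.8 and 68.4 FPKM in DMSO and at 86.0, 81.0 and 116 FPKM in vorinostat (log2 fold change 0.43, standard error 0.143, limma adjusted p = 0.940), and the fold change was 0.27 without vorinostat replicate 3.

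Some genes lay outside the DMSO range in all 3 vorinostat libraries, although none was called. All 3 vorinostat values exceeded all 3 DMSO values for 275 genes (2.25% of those tested), and all 3 were under them for 377 (3.08%). If the treatment labels were interchangeable, a gene would lie without overlap, on either side, with a probability of 0.1. The sum of these shares is smaller than that. Lack of overlap alone thus does not set a gene apart from the spread between libraries. Vorinostat replicates 2 and 3 alone lay above all DMSO libraries for 851 genes (6.95%) and under them for 717 (5.86%). In EGFR-low cells all 3 vorinostat values were above DMSO for 462 genes (3.78%) and under it for 696 (5.69%). The genes named next were chosen after their values were seen. L1CAM, a neural adhesion molecule of the immunoglobulin family, was at 12.4, 12.96 and 9.23 FPKM in DMSO and at 45.5, 24.6 and 29.7 FPKM in vorinostat. All 3 vorinostat libraries were clear of DMSO, the lowest at 24.6 FPKM against a highest of 12.96 FPKM. The log2 fold change was 1.42 (95% confidence interval 0.62 to 2.22, unadjusted p = 0.00227, limma adjusted p = 0.940), 1.18 without vorinostat replicate 1 and 1.04 without DMSO replicate 3 as well. The exact two-sided permutation p of any gene without overlap is 0.1, the least possible with 3 against 3. For L1CAM it was thus fixed by the choice, and the unadjusted p is likewise that of a gene picked on its values.

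S100A8 and S100A9, the subunits of the calcium-binding protein calprotectin, behaved alike. S100A8 was at 3.96, 3.96 and 5.14 FPKM in DMSO and at 20.1, 14.4 and 9.07 FPKM in vorinostat (log2 fold change 1.48, 1.23 without vorinostat replicate 1, limma adjusted p = 0.940). S100A9 was at 468, 332 and 279 FPKM in DMSO and at 1399, 732 and 604 FPKM in vorinostat (log2 fold change 1.28, 0.92 without vorinostat replicate 1, limma adjusted p = 0.940). Both were highest in vorinostat replicate 1 and still above every DMSO library in replicates 2 and 3. S100A8 was the only gene that replicate 2 held 1 log2 unit or more above all DMSO libraries.

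Keratins, the intermediate filaments of epithelia, gave 14 tested genes, of which 2 (KRT15 and KRT23) lay higher in all vorinostat libraries and 0 lower, against 2.25 and 3.08% of all genes. KRT23 was at 29.05, 16.1 and 15.1 FPKM in DMSO and at 95.4, 31.5 and 40.3 FPKM in vorinostat (log2 fold change 1.32, limma adjusted p = 0.940). The fold change was 0.86 without vorinostat replicate 1 and 0.69 without DMSO replicate 3 as well. Its lowest vorinostat value, in replicate 2, was barely over its highest DMSO value, in replicate 1. KRT15, a keratin of basal cells, was at 15.2, 15.05 and 15.98 FPKM in DMSO and at 39.2, 28.3 and 19.5 FPKM in vorinostat (log2 fold change 0.82, limma adjusted p = 0.940). The basal keratin KRT5 stood out in replicate 1, at 14.6, 12 and 10.6 FPKM in DMSO and 46.5, 15.8 and 11.7 FPKM in vorinostat. In vorinostat replicate 1, 5 of the 14 keratins (KRT5, KRT13, KRT15, KRT23 and KRT80) lay 1 log2 unit or more above all DMSO libraries, where 1.05% of all genes did, and 0 in replicates 2 and 3.

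IGFBP3, which binds insulin-like growth factors outside the cell, was at 165, 140 and 164 FPKM in DMSO and at 434, 223 and 214 FPKM in vorinostat (log2 fold change 0.81, 0.48 without vorinostat replicate 1, limma adjusted p = 0.940). IGFL1, an IGF-like secreted protein, had the largest mean fold change upward of the genes that did not overlap, at 1.03, 1.32 and 0.787 FPKM in DMSO and 32.5, 2.41 and 1.36 FPKM in vorinostat. Its log2 fold change of 1.67 (limma adjusted p = 0.940) dropped to 0.48 without vorinostat replicate 1, which held nearly all of it. HRK, a BH3-only activator of apoptosis, was at 0.713, 1.19 and 0.832 FPKM in DMSO and at 1.92, 1.25 and 2.01 FPKM in vorinostat (log2 fold change 0.51, limma adjusted p = 0.940), a level so low that the added 1 weighs on the fold.

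Among genes lower without overlap, MRPL30, a protein of the mitochondrial ribosome, was at 8.80, 14.4 and 13.3 FPKM in DMSO and at 5.27, 7.01 and 5.02 FPKM in vorinostat. All 3 vorinostat libraries were low to a like degree, with a log2 fold change of -0.94 (95% confidence interval -1.54 to -0.35, limma adjusted p = 0.940) and of -0.90 without vorinostat replicate 1. CENPV, a centromere protein of mitosis and cytokinesis, was at 5.55, 6.38 and 7.49 FPKM in DMSO and at 0.988, 4.53 and 4.12 FPKM in vorinostat (log2 fold change -0.96, -0.48 without vorinostat replicate 1, limma adjusted p = 0.940). ALDH3B1, an aldehyde dehydrogenase, was at 16.3, 17.1 and 27.9 FPKM in DMSO and at 4.73, 14.7 and 12.4 FPKM in vorinostat (log2 fold change -0.97, -0.52 without vorinostat replicate 1 and -0.29 without DMSO replicate 3 as well, limma adjusted p = 0.940). The translation elongation factor EEF1A1 was listed at 0 FPKM in vorinostat replicate 2 and at 3057 to 7877 FPKM in the other 11 libraries, so no fold is given for it.

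**Figure D3:**
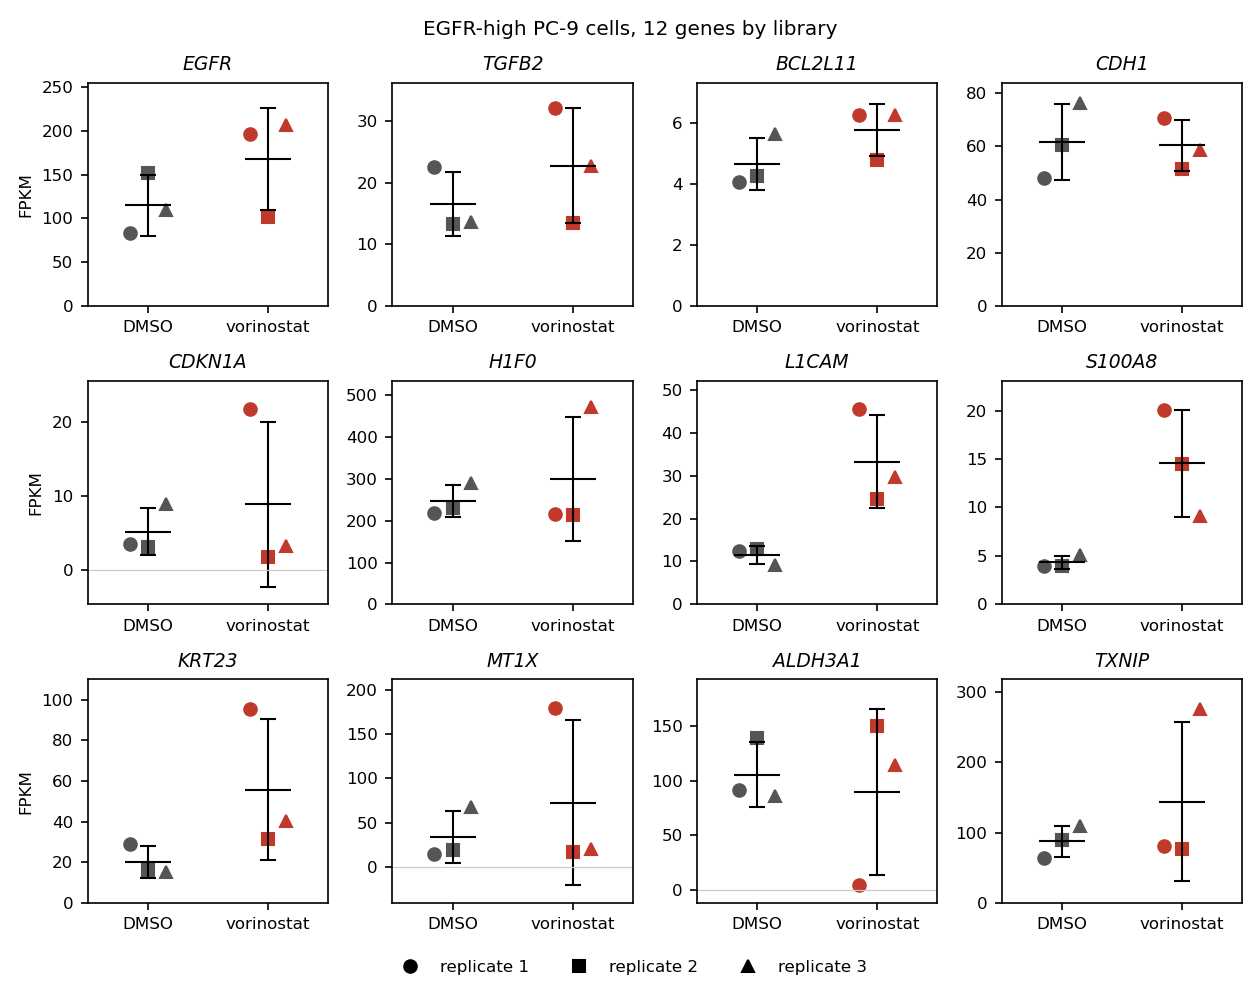
FPKM (y axes, linear from 0 or lower where an error bar ends under 0) of 12 genes in the 3 DMSO and 3 vorinostat libraries of EGFR-high cells, with symbols for replicates 1 to 3 and a bar and whiskers for mean and SD. L1CAM, S100A8 and KRT23 did not overlap between the groups, CDKN1A, MT1X and ALDH3A1 differed in vorinostat replicate 1 and TXNIP in replicate 3.

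Vorinostat replicate 1 is described here by itself, as 1 library with no test. Its genes above DMSO were low ones, with a median of 3.00 FPKM in DMSO, against 15.4 FPKM for those under DMSO and 10.8 FPKM for all tested genes. On the log2(FPKM + 1) scale a gene can lie 1 log2 unit under DMSO only if every DMSO library reaches 1 FPKM. Genes above have no such limit, so part of this contrast follows from the rule. Vorinostat replicates 2 and 3 did not share its pattern. Over the 129 genes above, their medians lay 0.02 and 0.04 log2 units over the DMSO median, against 1.47 for replicate 1, and over the 181 genes under, they lay at 0.13 and 0.00 against -1.38. Mitochondrial transcripts made up 24.2% of its FPKM, against 7.27 and 10.3% in vorinostat replicates 2 and 3 and 8.96 to 18.6% in DMSO. The part of this share in the differences below was not tested. The median transcript was 3995 bases long for genes above, 2767 for genes under and 3668 for all genes, and their median GC contents were 50.9, 52.6 and 48.2%.

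The metallothioneins, small cysteine-rich proteins that bind zinc and copper, were the group that stood highest in vorinostat replicate 1. The median of the 6 tested members was 1.94 log2 units above the DMSO median, and -0.06 and 0.00 in replicates 2 and 3. MT1X was at 14.2, 18.5 and 67.4 FPKM in DMSO and at 179, 16.7 and 20.6 FPKM in vorinostat. MT2A was at 44.1, 34.5 and 149.6 FPKM in DMSO and at 159, 29.1 and 23.0 FPKM in vorinostat. Both genes were thus also high in DMSO replicate 3, whose median over the 6 members was 1.77 log2 units above the DMSO median, so that only MT1X exceeded all DMSO libraries by 1 log2 unit. In EGFR-low cells MT2A stood at 242 to 305 FPKM in DMSO. The MT1 genes are near copies of each other, and the split of reads between them is uncertain. The promoters of MT1X and MT2A, the 2 most abundant members in that library, are shown because both genes moved together and because metal-responsive elements drive this family. They come from RefSeq on GRCh38.p14, run 5′ to 3′ on the gene's strand over 300 bases around the start, and the capitals mark TGCACNC or TGCGCNC, the core of that element, on either strand. MT1X lies on the + strand at chr16:56682220-56682519 and MT2A on the + strand at chr16:56608334-56608633.
MT1X: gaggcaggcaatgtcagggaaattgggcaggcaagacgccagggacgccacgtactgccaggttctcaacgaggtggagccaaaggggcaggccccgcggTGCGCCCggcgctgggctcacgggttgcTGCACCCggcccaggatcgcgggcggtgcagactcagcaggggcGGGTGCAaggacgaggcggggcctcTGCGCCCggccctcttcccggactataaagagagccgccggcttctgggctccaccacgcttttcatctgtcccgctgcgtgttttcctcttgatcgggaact
MT2A: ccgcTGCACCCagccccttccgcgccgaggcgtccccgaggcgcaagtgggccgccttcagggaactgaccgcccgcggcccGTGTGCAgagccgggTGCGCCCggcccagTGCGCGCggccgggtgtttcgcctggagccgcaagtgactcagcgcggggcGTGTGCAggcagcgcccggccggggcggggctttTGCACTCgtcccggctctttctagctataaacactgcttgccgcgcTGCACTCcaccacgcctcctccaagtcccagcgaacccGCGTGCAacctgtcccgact
The core was found 4 times in MT1X and 8 times in MT2A. It is short, and 29.6% of 35116 promoters of the same length hold it at least once. These promoters were matched for MT1X, MT2A and MT1H among the 6 tested members. The build of the deposited alignment, hg19, differs from that of these sequences.

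Medians of matrix, integrin and TGFβ-induced genes lay above DMSO in vorinostat replicate 1. That of 28 matrix genes was 0.34 log2 units in replicate 1, 0.05 in replicate 2 and 0.20 in replicate 3, and that of 13 integrins was 0.47, -0.14 and 0.12. In replicate 1, 2 matrix genes (FN1 and THBS1) lay 1 log2 unit or more above all DMSO libraries and 0 under. Of the integrins 1 lay as far above (ITGB3) and 1 as far under (ITGB2). Of all genes 1.05% lay above and 1.48% under. INHBA, a subunit of activin, was at 18.5, 8.86 and 11.9 FPKM in DMSO and at 82.0, 9.85 and 23.4 FPKM in vorinostat. TGFBR1, the type I TGFβ receptor, was at 11.2, 9.86 and 12.3 FPKM in DMSO and at 35.0, 10.0 and 10.1 FPKM in vorinostat. Of 32 tested genes of the TGFβ and BMP axis, INHBA, TGFBR1 and TGFBR2 lay 1 log2 unit or more above all DMSO libraries in replicate 1, where 1.05% of all genes did, and 0 did in replicates 2 and 3. FN1, fibronectin, was at 2.76, 3.08 and 11.5 FPKM in DMSO and at 31.2, 2.86 and 4.33 FPKM in vorinostat. THBS1, thrombospondin 1, was at 22.8, 9.27 and 11.2 FPKM in DMSO and at 58.5, 6.87 and 24.6 FPKM in vorinostat. The median of 23 tested TGFβ-induced genes was 0.48 log2 units above DMSO in replicate 1, -0.08 in replicate 2 and 0.26 in replicate 3, and 0 of them were called in the comparison of the groups. The intermediate filament VIM was at 25.6 FPKM in vorinostat replicate 1 and 15 FPKM in DMSO replicate 3, and at 1.64 to 2.70 FPKM in the other 4 libraries. The immune checkpoint ligand CD274 (PD-L1) was at 13.9 FPKM in vorinostat replicate 1 and at 1.48 to 3.57 FPKM in the other 5.

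Medians of genes for DNA synthesis and mitosis lay under DMSO in the same library. The median of 41 tested S phase genes was -0.74 log2 units from DMSO in vorinostat replicate 1, 0.31 in replicate 2 and -0.06 in replicate 3, and that of 54 G2/M genes was -0.75, 0.07 and 0.14, against -0.14, 0.00 and 0.01 over all genes. Those of replicate 1 were -0.60 and -0.60 after removal of the GC and length trend. MCM5, a subunit of the replicative helicase, was at 34.8, 37.9 and 48.0 FPKM in DMSO and at 14.1, 47.6 and 22.3 FPKM in vorinostat. HMGB2, a chromatin protein of proliferating cells, was at 166, 130 and 155 FPKM in DMSO and at 46.1, 179 and 156 FPKM in vorinostat. In replicate 1, 4 of the 41 S phase genes (MCM5, TYMS, NASP and RAD51AP1) and 3 of the 54 G2/M genes (HMGB2, TMPO and HMMR) lay 1 log2 unit or more under all DMSO libraries, where 1.48% of all genes did. TOP2A, the topoisomerase of dividing cells, was at 31.7 FPKM in vorinostat replicate 1 and 55.2 to 71.7 FPKM in the other 5 libraries. In the comparison of the groups 0 of the 41 and 0 of the 54 genes were called.

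Genes of detoxification also stood low in vorinostat replicate 1. ALDH3A1, an aldehyde dehydrogenase, was at 4.18 FPKM there and at 86.2 to 151 FPKM in the other 5 libraries, the deepest drop among genes under DMSO. NQO1, a quinone reductase and a standard readout of the transcription factor NRF2, was at 650, 678 and 554 FPKM in DMSO and at 263, 856 and 609 FPKM in vorinostat. Of 25 tested NRF2 targets, 6 (NQO1, PGD, AKR1C1, AKR1C2, UGDH and EPHX1) lay 1 log2 unit or more under all DMSO libraries in replicate 1, where 1.48% of all genes did, and 0 in replicates 2 and 3. The median of the 25 targets was -0.68 log2 units in replicate 1, 0.22 in replicate 2 and -0.02 in replicate 3. That of replicate 1 was -0.56 after removal of the GC and length trend. The 6 genes lay only -1.025 (AKR1C2) to -1.30 (EPHX1) log2 units from the lowest DMSO library, on values that include the lower level of this library. AKR1C1 and AKR1C2 are near copies, and the split of their reads is uncertain. NNT, the mitochondrial transhydrogenase that supplies NADPH, was at 2.57 FPKM in replicate 1 and at 18.5 to 24.6 FPKM in the other 5 EGFR-high libraries.

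The ATF4 program of amino acid shortage and stress moved in opposite directions in vorinostat replicates 1 and 3. Its 30 genes, which include the cytosolic tRNA synthetases, had a median of -0.91 log2 units from DMSO in replicate 1, -0.19 in replicate 2 and 0.50 in replicate 3. The DMSO libraries themselves spread from -0.31 in replicate 1 to 0.25 in replicate 2. In replicate 1, 3 of the 30 genes (the synthetic enzymes ASNS, PSAT1 and MTHFD2) lay 1 log2 unit or more under all DMSO libraries, where 1.48% of all genes did. In replicate 3, 4 of the 30 (DDIT4, TRIB3, CHAC1 and SESN2) lay as far above them, where 0.0981% of all genes did. ASNS, asparagine synthetase, was at 54.1, 165 and 136 FPKM in DMSO and at 23.8, 89.5 and 166 FPKM in vorinostat. PSAT1, an enzyme of serine synthesis, was at 113, 291 and 172 FPKM in DMSO and at 40.1, 188 and 358 FPKM in vorinostat. TRIB3, a pseudokinase, was at 66.0, 58.7 and 44.5 FPKM in DMSO and at 42.8, 42.9 and 136 FPKM in vorinostat. CHAC1, which degrades glutathione, was at 4.39, 6.21 and 4.59 FPKM in DMSO and at 1.83, 3.04 and 13.6 FPKM in vorinostat. Replicate 1 was thus the lowest library for ASNS, PSAT1 and CHAC1, and replicate 3 the highest for these and for TRIB3.

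The promoters of ASNS and CHAC1 are shown as the genes of this program named here that hold the letters TGATGNAA, the core of the element that ATF4 and C/EBP proteins bind together. They come from RefSeq on GRCh38.p14 in the same window, with the match in capitals, which in CHAC1 is read on the opposite strand. ASNS lies on the - strand at chr7:97872359-97872658 and CHAC1 on the + strand at chr15:40953221-40953520.
ASNS: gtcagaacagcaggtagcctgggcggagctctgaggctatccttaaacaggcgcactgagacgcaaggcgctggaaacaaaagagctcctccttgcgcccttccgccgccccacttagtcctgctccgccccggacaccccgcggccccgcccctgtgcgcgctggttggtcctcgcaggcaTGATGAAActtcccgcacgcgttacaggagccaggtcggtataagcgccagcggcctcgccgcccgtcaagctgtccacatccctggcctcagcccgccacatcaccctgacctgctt
CHAC1: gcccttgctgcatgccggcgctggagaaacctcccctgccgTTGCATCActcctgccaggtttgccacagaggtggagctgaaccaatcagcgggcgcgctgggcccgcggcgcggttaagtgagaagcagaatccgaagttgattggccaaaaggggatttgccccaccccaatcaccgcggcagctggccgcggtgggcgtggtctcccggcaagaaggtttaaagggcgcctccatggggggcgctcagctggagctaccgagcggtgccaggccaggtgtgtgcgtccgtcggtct
Each holds the letters 1 time, while the windows of PSAT1, MTHFD2, TRIB3, DDIT4 and SESN2 hold none. Of the genes of this program far above DMSO in vorinostat replicate 3, CHAC1 alone thus holds them. Promoters were matched for 15 of the 30 members, and 4 of these (ASNS, CHAC1, SLC3A2 and ATF3) hold the letters, against 3.62% of 35116 promoters of this length. A match is a description of the sequence, and says nothing of whether the factor was bound.

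Vorinostat replicate 3 had 12 genes 1 log2 unit or more above all DMSO libraries. Besides the ATF4 genes and L1CAM they held TXNIP and its relative ARRDC4, the secreted stanniocalcin STC2, the TGFβ-inducible factor KLF10, the lipase inhibitor G0S2, the mucin MUC5B and PLAC1. DDIT4, an inhibitor of mTORC1, was at 109, 109 and 98.4 FPKM in DMSO and at 51.8, 102 and 292 FPKM in vorinostat. STC2 was at 47.4, 75 and 50.1 FPKM in DMSO and at 77.8, 52.4 and 161 FPKM in vorinostat. MUC5B was at 2.72, 3.03 and 2.56 FPKM in DMSO and at 0.170, 4.37 and 9.36 FPKM in vorinostat, so it was the lowest in replicate 1 and the highest in replicate 3. The 2 genes as far under all DMSO libraries were RPL36AL and COMMD3-BMI1, and in replicate 2 they were EEF1A1 and DNAJC25-GNG10.

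**Figure D4:**
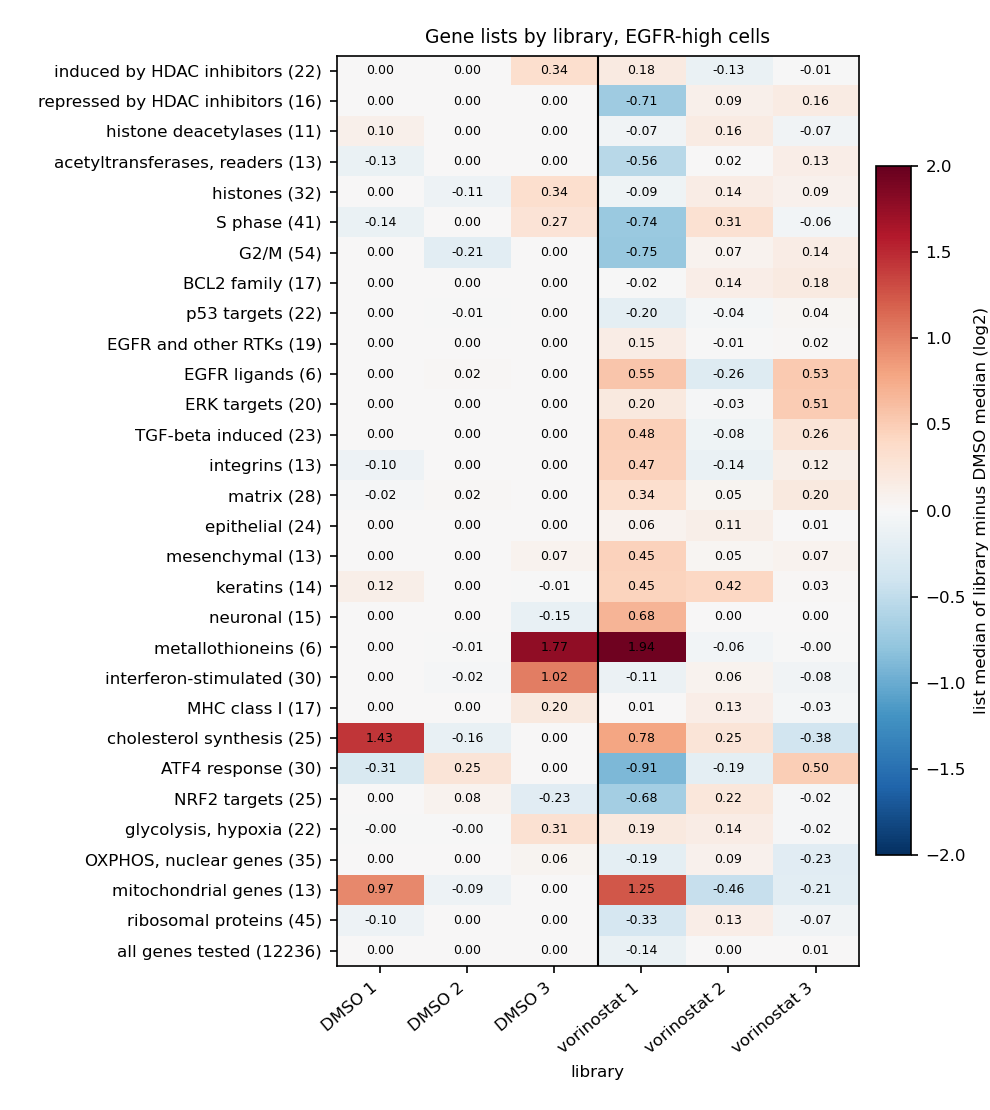
Median over the tested genes of each list (rows, with their number) of the library minus the DMSO median per gene, in log2 units, for the 6 EGFR-high libraries (columns). Each DMSO library is part of its own reference, so the DMSO columns sit nearer to 0 than the vorinostat columns by construction. Metallothioneins reached 1.94 in vorinostat replicate 1 and 1.77 in DMSO replicate 3, the ATF4 response -0.91 and 0.50 in vorinostat replicates 1 and 3, and cholesterol synthesis 1.43 in DMSO replicate 1.

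Other lists moved with single DMSO libraries. Cholesterol synthesis and uptake genes were high in DMSO replicate 1, with a median of 1.43 log2 units over 25 genes, and at 0.78, 0.25 and -0.38 in vorinostat replicates 1 to 3. HMGCS1, which makes HMG-CoA, was at 477, 76.5 and 70.2 FPKM in DMSO and at 310.0, 126 and 48.3 FPKM in vorinostat. Interferon-stimulated genes were high in DMSO replicate 3, with a median of 1.02 over 30 genes, and between -0.11 and 0.06 in the vorinostat libraries. IFITM3, a membrane protein that restricts viral entry, was at 17.6, 21.8 and 168 FPKM in DMSO and at 12.7, 23.3 and 20.7 FPKM in vorinostat. The median log2 fold change of the interferon-stimulated genes between the groups was -0.31 with all libraries and 0.04 without DMSO replicate 3. DMSO replicate 3 is also the library that held RNA of genes of EGFR-low cells. Among those genes were IFI16 and IFITM1, the latter at 183 to 245 FPKM in the EGFR-low libraries used to choose them. The part of that RNA in the interferon median was not tested. In all, 41 lists with 802 tested genes were examined, 0 held a called gene, and their median log2 fold changes ran from -0.31 to 0.26.

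The response of EGFR-high cells could not be told from that of EGFR-low cells. In EGFR-low cells vorinostat against DMSO gave 0 genes higher and 0 lower by limma (115 genes, 0.940%, at an unadjusted p under 0.05). The test of the difference between the responses, which share no library, gave 0 and 0 as well, with 215 genes (1.76%) at an unadjusted p under 0.05. For EGFR the log2 fold change was 0.52 in EGFR-high and -0.44 in EGFR-low cells, and the difference of 0.96 did not pass (limma adjusted p = 0.999). In EGFR-low cells EGFR was at 43.3, 17.7 and 19.3 FPKM in DMSO and at 19.7, 16.1 and 18.2 FPKM in vorinostat, with DMSO replicate 1, which held EGFR-high transcripts, the highest.

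Vorinostat replicate 1 of EGFR-low cells also stood apart from its fellows, with 54 genes (0.441%) above and 80 (0.654%) under the EGFR-low DMSO libraries by 1 log2 unit or more. In EGFR-low vorinostat replicates 2 and 3 these counts were 0 to 2. Against EGFR-low DMSO replicates 2 and 3 alone they were 128 (1.05%) and 180 (1.47%) for replicate 1, and at most 1 (0.00817%) above and 3 (0.0245%) under for replicates 2 and 3. Of the genes above, 8 were shared with EGFR-high replicate 1, which is 6.20% of the EGFR-high list and 14.8% of the EGFR-low list. Of the genes under, 15 were shared, or 8.29 and 18.8%. Shared above were MT1X, the diamine oxidase AOC1, the small heat shock protein HSPB8, the cytokine IL18, GEM, RTBDN, SP140 and WIPI1. ALDH3A1, the stress protein NUPR1, APOC1 and the BH3-only gene BID were among those shared under. MT1X reached 327 FPKM in EGFR-low vorinostat replicate 1, against 88.7 to 147 FPKM in the other 5 EGFR-low libraries. The difference of replicate 1 from the mean of replicates 2 and 3 correlated between the populations at Pearson's r = 0.353 across the 12236 genes, which are not independent of each other. IGFBP3 alone lay on opposite sides, above DMSO in EGFR-high and under it in EGFR-low replicate 1. Mitochondrial transcripts were 22.3% of FPKM in that EGFR-low library, against 7.80 to 16.7% in the other 5, and their part in the shared genes was not tested. The lowest of these shares is that of EGFR-low DMSO replicate 1, where MT-ATP8, MT-ATP6 and MT-CO3 are listed at 0, which lowers it.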

How the data were processed

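Poly(A) RNA of sorted PC-9 cells was sequenced. The authors deposited FPKM per gene for 12 libraries (EGFR-high and EGFR-low, DMSO and vorinostat, n = 3 each). The unit was inferred from the values as deposited, since their naming calls them Cufflinks gene counts. The submitters' processing notes list STAR 2.5.1b, Cufflinks 2.2.1, DESeq2 1.10.1 and hg19 without roles. No reads or depths were used, so precision rests on the replicates.

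Log2(FPKM + 1) was fitted with limma 3.58.1 (R 4.3.3, with a mean-variance trend) for genes that reached 1 FPKM in 3 or more of 12 libraries, each group having its own mean, with contrasts within and between the populations, and Benjamini-Hochberg adjustment over 12236 genes. The fit was run on simulated data, with independent noise drawn for each gene and library around the group means. Mixed or shifted libraries were not simulated, so that run cannot tell how many true changes the fit misses in these data. Single genes were also compared by exact two-sided permutation tests in scipy 1.17.1. EGFR-high vorinostat replicate 1 was set apart and EGFR-high DMSO replicate 3 left out in further fits. Single libraries were compared with the range of the DMSO libraries without a test, at a step of 1 log2 unit. Each gene took the GC content and length of its longest GENCODE transcript, known for 94.9% of tested genes. Pearson's r was computed on log2(FPKM + 1). Members and gene lists were chosen with earlier results of these data known.

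The rule for named genes was the largest changes among called genes in each fit, of which there were none, up to 4 members per list by size of change, the protein-measured genes, the histone deacetylases, CDKN1A, MYC, CCND1 and H1F0, and the 5 genes in each direction that set vorinostat replicate 1 farthest from replicates 2 and 3. Every other gene named was chosen after its values were seen. Alternatives were other pseudocounts, filters, scalings, library sets, replicate blocks, no trend, and removal of the GC and length trend. The untreated experiment was not used. A gene of the lists is not reported here.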

Additional observations from a re-analysis of the deposited data

Results flagged for a closer look

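For IGFBP3 and CENPV, both given with a fold change, the 3 vorinostat libraries lay wholly on one side of DMSO in EGFR-high cells and wholly on the other side in EGFR-low cells. IGFBP3 was higher in EGFR-high cells, and in EGFR-low cells it was at 48.5, 15.1 and 9.53 FPKM in DMSO and at 1.75, 3.59 and 6.5 FPKM in vorinostat, a difference between the responses of 2.97 log2 units. EGFR-low DMSO replicate 1 holds EGFR-high transcripts. CENPV was at 10.5, 11.4 and 11 FPKM in EGFR-low DMSO and at 11.6, 12.95 and 13.1 FPKM in EGFR-low vorinostat, a difference of -1.14. Neither difference passed the test (limma adjusted p = 0.999 for each). Such opposite patterns were seen for 19 genes (0.155% of 12236) higher in EGFR-high cells and for 13 (0.106%) lower there. The same side in both populations was seen for 7 genes (0.0572%) higher and 27 (0.221%) lower. In EGFR-high cells alone 2.25% of genes lay higher and 3.08% lower without overlap, and in EGFR-low cells 3.78 and 5.69%. Unrelated lists with such shares also overlap, and whether the opposite patterns exceed that was not tested.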

How the results depend on the processing

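The count of called genes between vorinostat and DMSO was 0 under all 21 alternatives run, 0 to 0 when each library was left out, with 138 to 1203 genes at an unadjusted p under 0.05. It was 0 with the replicate block (722 genes at an unadjusted p under 0.05) and 0 with the block and the GC trend removed (710), and the block changed no call there or for the difference between populations. Same-numbered EGFR-high libraries were not taken as paired, since the deviations of DMSO and vorinostat from their group means correlated at 0.0597, 0.189 and -0.143 for replicates 1 to 3. In EGFR-low cells, which are in the same fit, they correlated at 0.267, 0.302 and 0.329. Without a filter on low values, 2 genes were called without vorinostat replicate 1 (WFDC6 and SHISA8) and 1 gene for the difference between populations (AC114494.1), joined there by SHISA8 without vorinostat replicate 1, all of them at or under 0.551 FPKM. A fit of vorinostat against DMSO also left out 4 libraries, EGFR-high vorinostat 1 and DMSO 3 and EGFR-low DMSO 1 and vorinostat 1. It called 0 genes in EGFR-high cells, with a lowest limma adjusted p of 0.0606 and 525 genes at an unadjusted p under 0.05. This set of libraries was chosen after the data were seen. With 0 calls there was no share of higher calls to compare between scalings.

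Of 438 values for the 21 genes given with a fold change and its alternatives, 420 kept their direction and their side of the threshold, and 18 changed direction. The log2 fold change of CDH1 turned to 0.0412 with median-of-ratios scaling, 0.0285 with quantile normalization, and 0.0304 without vorinostat 1 and DMSO 3, also when 4 libraries were left out or only 4 EGFR-high libraries were fitted. Leaving out single libraries, EGFR ran from 0.310 to 0.847, TGFB2 from 0.117 to 0.715, CDH1 from -0.180 to 0.150, ACTA2 from -0.628 to 0.0120, CDKN1A from -0.743 to 0.768, MYC from -0.0991 to 0.361, CCND1 from -0.00986 to 0.150 and H1F0 from -0.187 to 0.386. CDKN1A was -0.35 without vorinostat 1 and DMSO 3 and in both smaller sets of libraries. The cause of these changes was not tested. The unknown depth limits what can be said of genes near 1 FPKM.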
